A study of Saccharomyces cerevisiae with 2 samples.

Results

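Ergosterol is the main sterol of yeast membranes, as cholesterol is in animals. The set described here is 33 genes that make ergosterol, supply electrons to its synthesis, store it as steryl esters, release it from them or control these genes. Its members are the mRNA rows of the deposited table whose gene name is one of 33 names chosen for these roles, and all 33 were found among 5995 mRNAs and 6420 features. The study asked how loss of Cdc55p, a regulatory subunit of protein phosphatase 2A, alters gene expression early in alcoholic fermentation. Cells of cdc55Δ and of WT, both in BY4741, a haploid S288C derivative of mating type a used in laboratories, were held still for 6 h at 30 °C in YPD20, a rich medium with a high glucose concentration. The deletion in cdc55Δ was the only labelled difference between the strains, and 1 library was sequenced per strain. No difference therefore has a replicate check, no p-value is given, and each comparison is of these libraries.

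The counts of each library summed to 30133454 in cdc55Δ and 33233285 in WT. CDC55 had 1 count in cdc55Δ and 2614 counts in WT, at least 775-fold lower against a floor of 3 counts. Both libraries carried mating type a genes, with STE2 at 16145 counts in cdc55Δ and 24905 counts in WT, and STE3 of the other mating type at 62 and 82. MFA1, MFA2, STE2 and BAR1 were all lower in cdc55Δ, with log2 fold changes between -1.34 and -0.24. Of the alleles removed from BY4741, LEU2, MET17 and URA3 had at most 2 counts in either library, and HIS3, which is deleted only in part in this strain, had 1275 and 1624.

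The pathway starts with acetyl-CoA and runs through mevalonate to farnesyl diphosphate, which also feeds ubiquinone, dolichol, heme A and protein prenylation. Squalene synthase commits farnesyl diphosphate to sterols, and the later enzymes close the rings and modify the nucleus and the side chain. Several of the later steps consume oxygen, and others use heme, iron or NADPH. Transcription of many of these genes is raised by Upc2p and Ecm22p when sterol is scarce, through a short promoter sequence called the sterol regulatory element.

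The core of that element, TCGTATA, was searched on both strands of the 500 bases before each start codon in the R64 assembly of S288C. It occurred 13 times, before 10 of the 33 genes (30.3%), against 420 of all 6000 protein-coding genes with a full window (7.0%). This longer window was chosen after values were seen. A shorter window ran from 250 bases before to 50 bases after the start codon. In it, 4 of the 33 genes held the core (12.1%), against 4.15% of 6001 genes. Of the 10, 2 belong to the mevalonate steps and 6 to the sterol steps, and the others are CYB5 and YEH1. The match of ERG28, the highest gene in cdc55Δ relative to WT, lies outside the shorter window, and that of ERG2, the lowest, inside it. The matches in the longer window are shown because they lie before both of these genes. Each is printed 5′ to 3′ on the strand that reads TCGTATA, with the core in capitals and 15 bases on either side.
ERG13, chrXIII:20728-20764, 214 bases before the start codon: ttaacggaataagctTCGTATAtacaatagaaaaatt
ERG13, chrXIII:20615-20651, 101 bases before: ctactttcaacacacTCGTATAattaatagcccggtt
ERG8, chrXIII:712149-712185, 152 bases before: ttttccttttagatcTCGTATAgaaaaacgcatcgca
ERG1, chrVII:848784-848820, 382 bases before: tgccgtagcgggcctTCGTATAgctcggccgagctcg
ERG25, chrVII:610066-610102, 483 bases before: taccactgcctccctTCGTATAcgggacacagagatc
ERG25, chrVII:610086-610122, 463 bases before: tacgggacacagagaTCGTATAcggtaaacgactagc
ERG28, chrV:238273-238309, 278 bases before: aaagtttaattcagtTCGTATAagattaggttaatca
ERG6, chrXIII:253401-253437, 432 bases before: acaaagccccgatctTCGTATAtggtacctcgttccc
ERG2, chrXIII:667337-667373, 185 bases before: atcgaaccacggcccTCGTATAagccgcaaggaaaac
ERG3, chrXII:253520-253556, 326 bases before: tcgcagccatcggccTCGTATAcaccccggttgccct
ERG3, chrXII:253560-253596, 286 bases before: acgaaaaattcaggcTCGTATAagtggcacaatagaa
CYB5, chrXIV:417556-417592, 275 bases before: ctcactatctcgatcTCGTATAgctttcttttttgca
YEH1, chrXII:125304-125340, 215 bases before: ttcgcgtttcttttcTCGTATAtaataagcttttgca

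**Figure D1:**
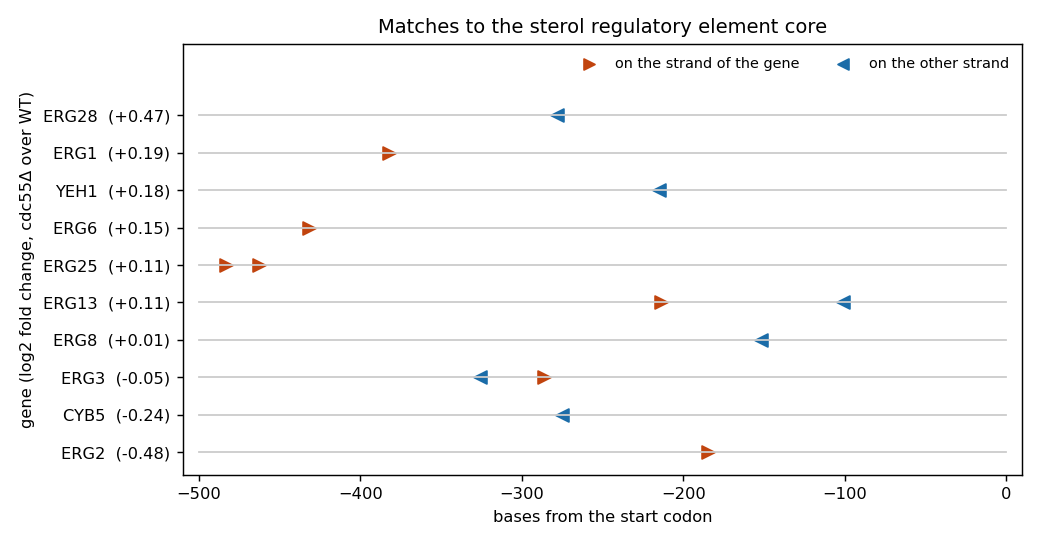
Position of each match to the sterol regulatory element core in the 500 bases before the start codon (x axis, bases) for the 10 genes that hold one, ordered by the log2 fold change of cdc55Δ over WT, which stands in parentheses. Arrowheads give the strand of the match, and the order runs from ERG28 at 0.47 at the top to ERG2 at -0.48 at the bottom.

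Transcript levels of the sterol genes differed little between the libraries. Counts were scaled with TMM factors from edgeR, and a prior count of 0.5 was used. The 33 log2 fold changes of cdc55Δ over WT had a median of 0.012, against 0.0041 over the 5548 mRNAs whose normalized counts averaged 50 or more. All 33 genes passed that minimum, and 32 had at least 1000 counts in both libraries. Of the 33, 0 were higher by 1.5-fold or more and 0 were lower by as much, where 5.06% and 2.69% of the 5548 mRNAs were. Past 2-fold were also 0 and 0, against 1.87% and 1.05%. Together these shares are 7.75%, or 2.56 genes out of 33, so a count of 0 lies near the background and is not read as particular to these genes. Among the 4061 mRNAs in the same range of mean counts, 5.42% were past 1.5-fold. Past 1.2-fold, a threshold added after the values were seen, 2 genes were higher, ERG28 and ERG24, and 2 were lower, ERG2 and ERG29, where 15.1% and 11.6% of all mRNAs tested were.

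Beside a log2 fold change, the range in parentheses is its 95% interval (Clopper-Pearson, on the cdc55Δ share of the reads of the gene). It covers counting error, with each read taken as independent, and not the difference between cultures. In RNA from whole cultures, less RNA per cell and fewer cells that express a gene cannot be told apart. The interval lay above 0 for 14 of the 33 genes and below 0 for 13, whereas 31.6% and 28.0% of all mRNAs tested lay above and below. Intervals narrow with more counts, and among mRNAs in the same range of mean counts these shares were 33.9% and 29.9%. That range, from 661 to 44564 normalized counts, bounds the counts but does not match their distribution. An excess beyond the effect of depth was not tested. From the lower to the upper quartile, the sterol genes spanned 0.28 on the log2 scale, against 0.29 over all mRNAs tested and 0.26 over those in the same range of mean counts. Their extremes were -0.48 and 0.47. The middle 95% reached from -0.61 to 0.88 over all mRNAs tested and from -0.47 to 0.69 over those in the same range of mean counts, so that ERG2 lay just outside that second range and ERG28 inside it.

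**Figure D2:**
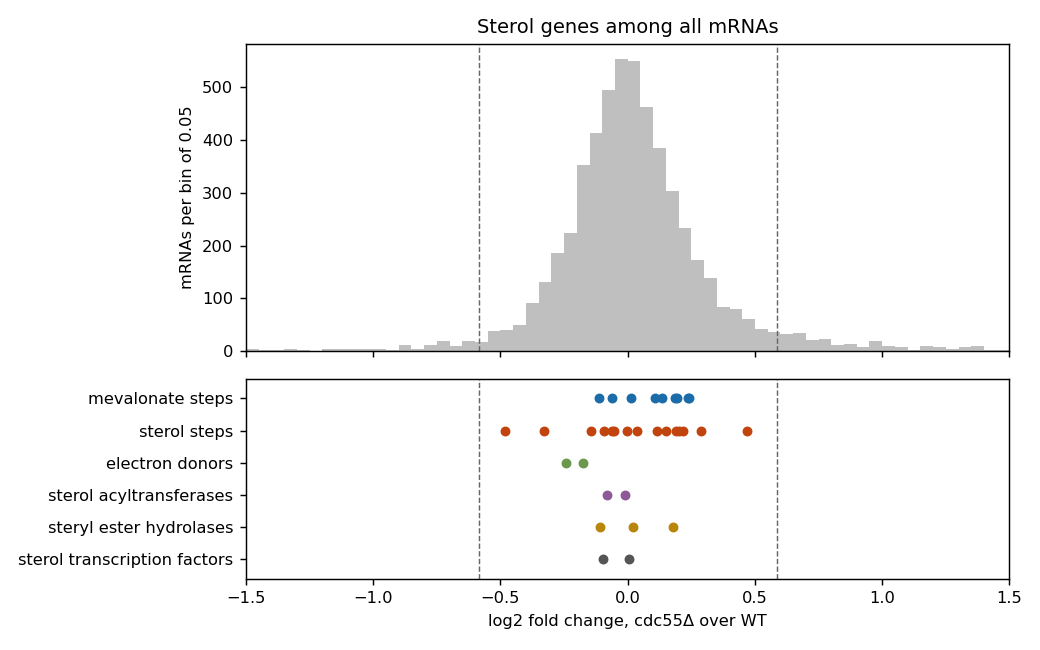
Log2 fold change of cdc55Δ over WT (x axis) for the 5548 mRNAs tested, as a histogram (y axis, mRNAs per bin, with 62 mRNAs beyond the axis), and below it for each sterol gene, 1 point per gene in rows by role. Dashed lines mark 1.5-fold, and all 33 points lie between them.

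The sterol genes took under 1% of each library. Their counts summed to 223573 in cdc55Δ, 0.909% of mRNA counts (95% interval 0.906% to 0.913%), and to 243636 in WT, 0.909% (0.905% to 0.913%). Of the counts over all features they held 0.742% (0.739% to 0.745%) in cdc55Δ and 0.733% (0.730% to 0.736%) in WT. These last intervals do not overlap, but they rest on 1 library each, and the share of mRNA counts showed no such gap. The mRNAs held 24582727 of 30133454 counts in cdc55Δ and 26800030 of 33233285 in WT. Levels between genes are compared in the deposited RPKM, the reads of a gene scaled by its length and by the library total, which ran over a 34.1-fold range in cdc55Δ and a 32.1-fold range in WT. ERG11, which encodes the P450 enzyme lanosterol 14-demethylase, the target of azole antifungals, was the most abundant in both, at an RPKM of 875 in cdc55Δ and 893 in WT. The median mRNA had 32.4 and 32.5. ECM22, the lowest in WT, was at 27.5 in cdc55Δ and 27.9 in WT, and ERG29, the lowest in cdc55Δ, was at 25.7 and 32.9. Thus 30 of the 33 genes in cdc55Δ and 31 in WT stood above the median mRNA.

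**Figure D3:**
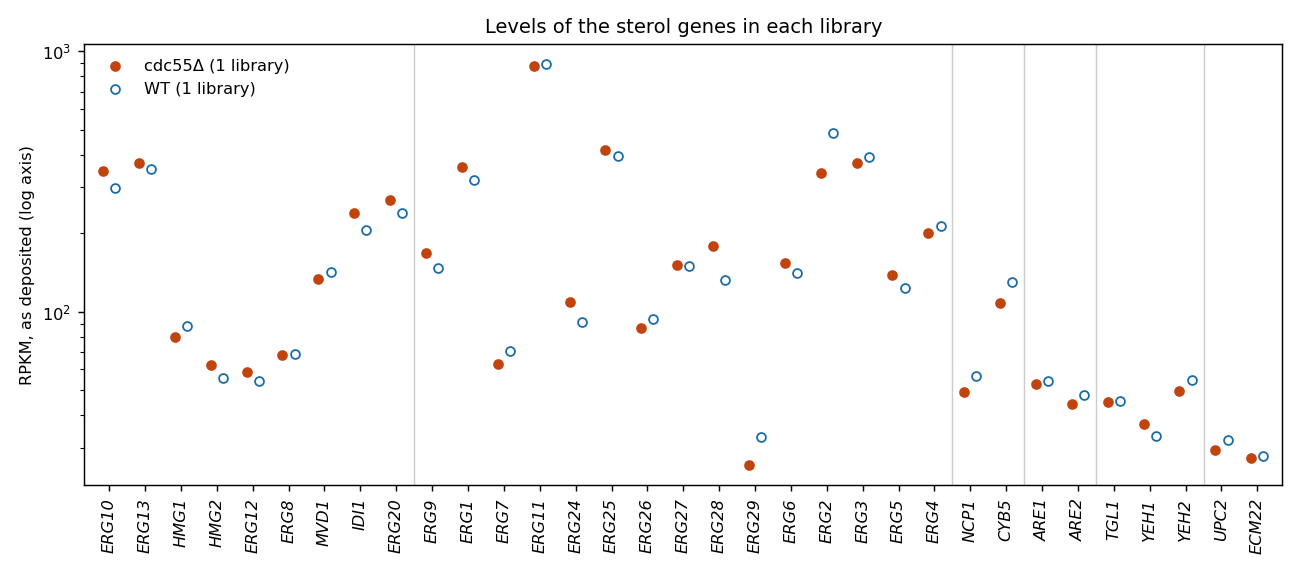
RPKM as deposited (y axis, log scale) of the 33 sterol genes in pathway order, with cdc55Δ as filled points left of WT as open points, 1 library each. Vertical lines part the roles, and ERG11 stands highest in both libraries, at 875 and 893.

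The order of the levels was largely kept, and 27 of the 33 genes moved by at most 2 ranks. ERG2 moved farthest, at rank 7 in cdc55Δ and rank 2 in WT. ERG28 was at rank 11 in cdc55Δ and rank 15 in WT.

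The mevalonate steps, from acetyl-CoA to farnesyl diphosphate, were mostly slightly higher in cdc55Δ. The median of their 9 log2 fold changes was 0.14. ERG10, the acetoacetyl-CoA thiolase that starts the pathway, had 12493 counts in cdc55Δ and 11881 counts in WT, a log2 fold change of 0.24 (0.20 to 0.28). ERG13, the HMG-CoA synthase, had 16563 counts in cdc55Δ and 17261 in WT, with a log2 fold change of 0.11 (0.078 to 0.14). The kinases and the decarboxylase that turn mevalonate into isopentenyl diphosphate had unlike values. ERG12, mevalonate kinase, had 2346 counts in cdc55Δ and 2401 in WT, a log2 fold change of 0.14 (0.052 to 0.22). ERG8, phosphomevalonate kinase, had 2786 and 3106 counts, and its log2 fold change of 0.012 (-0.063 to 0.086) was within counting error of 0. MVD1, the decarboxylase, had 4773 counts in cdc55Δ and 5604 in WT, a log2 fold change of -0.063 (-0.12 to -0.0072). The genes that follow in the path were both higher. IDI1, the isomerase that makes dimethylallyl diphosphate, had 6243 counts in cdc55Δ and 5946 in WT, a log2 fold change of 0.24 (0.19 to 0.29). ERG20, which joins these units into farnesyl diphosphate, had 8533 counts in cdc55Δ and 8441 in WT, a log2 fold change of 0.18 (0.14 to 0.23).

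HMG-CoA reductase, the main control point of the mevalonate pathway, is encoded by HMG1 (YML075C, chromosome XIII from 115734 to 118898) and HMG2 (YLR450W, chromosome XII from 1032627 to 1035764). In yeast, Hmg1p is the main isozyme in well aerated cells, and Hmg2p is known for its regulated degradation. HMG1 had 7649 counts in cdc55Δ and 9297 in WT, a log2 fold change of -0.11 (-0.16 to -0.069). HMG2 had 5923 counts in cdc55Δ and 5817 in WT, a log2 fold change of 0.19 (0.14 to 0.25). The isozymes thus lay on either side of 0, with a difference of -0.31 between their log2 fold changes (-0.38 to -0.24). For a difference between genes, such a 95% interval comes from the normal approximation to the log odds ratio and also covers counting error only. HMG1 held 56.4% of the counts of the pair in cdc55Δ (55.5% to 57.2%) and 61.5% in WT (60.7% to 62.3%). Per length, HMG1 stayed the more abundant, with an RPKM of 80.2 against 62.6 for HMG2 in cdc55Δ, and 88.4 against 55.8 in WT.

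The sterol steps, from squalene synthase to ergosterol, were more varied than the mevalonate steps. The median log2 fold change over the 15 genes was 0.036, with 8 above 0 and 7 below, and these steps held both the highest and the lowest of the 33 values. Above 0 were 53.3% of these genes and 77.8% of the mevalonate steps, against 50.7% of all mRNAs tested. The medians of the early and the late steps differed by 0.099. The SD across genes was 0.13 over the mevalonate steps and 0.24 over the sterol steps. No test of the difference was possible with 1 library per strain. Summed RPKM of the mevalonate steps was 1628 in cdc55Δ and 1506 in WT, and that of the sterol steps was 3641 and 3682. RPKM is scaled by the library total and not by TMM factors. The sterol sum includes ERG2, with an RPKM of 341 in cdc55Δ and 486 in WT.

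ERG9 and ERG1, which begin the sterol branch, were higher in cdc55Δ, and the genes that follow had unlike values. ERG9, squalene synthase, had 6788 counts in cdc55Δ and 6557 in WT, a log2 fold change of 0.22 (0.17 to 0.27). ERG1, squalene epoxidase, the target of terbinafine and the first oxygen-using enzyme of the branch, had 16136 counts in cdc55Δ and 15901 in WT, a log2 fold change of 0.19 (0.16 to 0.22). ERG7, lanosterol synthase, which closes the sterol rings, had 4155 counts in cdc55Δ and 5157 in WT and was slightly lower, at -0.14 (-0.20 to -0.084). ERG11 had 42011 and 47272 counts, and its log2 fold change of -0.0018 (-0.021 to 0.017) was the closest to 0 of all 33 genes with this scaling. With upper-quartile scaling it was -0.043, and ERG27 was closer to 0. ERG24, the C-14 reductase that acts next, had 4327 counts in cdc55Δ and 3979 in WT, the second highest log2 fold change of the set at 0.29 (0.23 to 0.35).

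Removal of the methyl groups at C-4 needs 3 enzymes, Erg25p, Erg26p and Erg27p, which Erg28p tethers in the endoplasmic reticulum, and the genes of this complex had unlike values. ERG25, the oxygen-using methyl oxidase, had 11751 counts in cdc55Δ and 12196 in WT (log2 fold change 0.11). ERG26, the decarboxylase, had 2728 counts in cdc55Δ and 3271 in WT (-0.093), and ERG27, the ketoreductase, had 4742 and 5199 (0.036). The scaffold gene ERG28 (YER044C, chromosome V from 237570 to 238016) had 2414 counts in cdc55Δ and 1962 in WT. Its log2 fold change of 0.47 (0.38 to 0.55), or 1.38-fold, was the highest of the 33, and 93.0% of all mRNAs tested lay below it. ERG29 (YMR134W, chromosome XIII from 537838 to 538551), whose product has been linked to the Erg25p step, was at the other end, with 553 counts in cdc55Δ and 781 in WT. It had the fewest counts of the set, and its log2 fold change of -0.33 (-0.49 to -0.17) had the widest interval. Between ERG29 and ERG25 the log2 fold changes differed by -0.44 (-0.61 to -0.28).

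**Figure D4:**
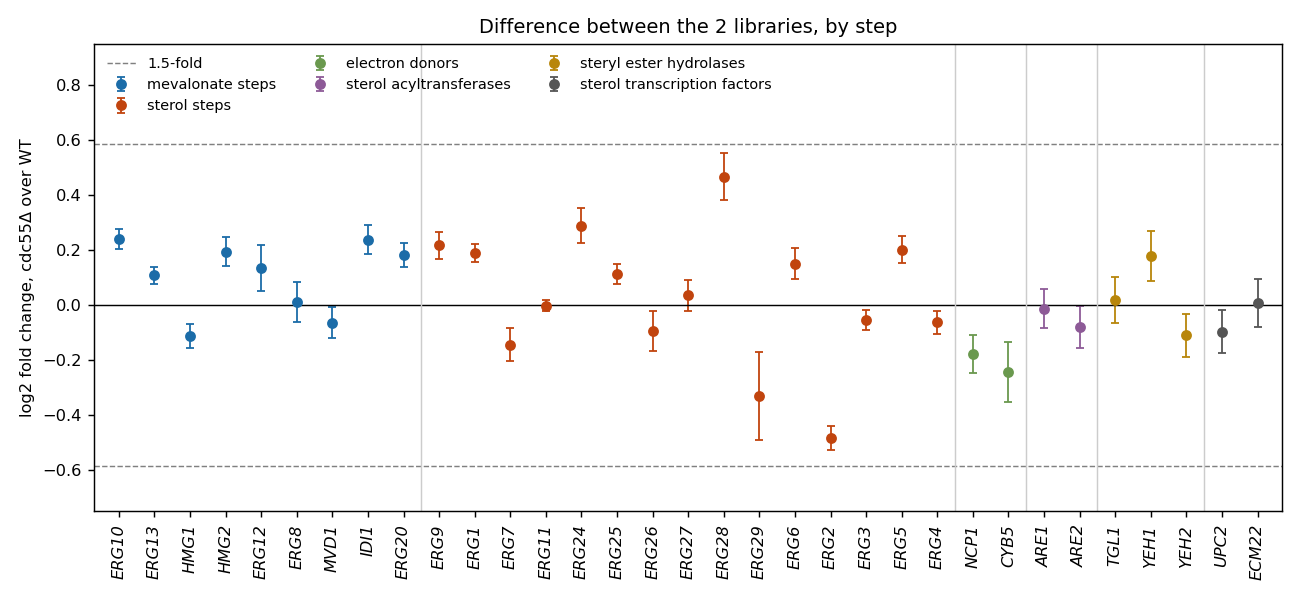
Log2 fold change of cdc55Δ over WT (y axis) of the 33 sterol genes in pathway order, coloured by role. Bars are 95% Clopper-Pearson intervals of counting error from 1 library per strain, and dashed lines mark 1.5-fold. ERG28 at 0.47 and ERG2 at -0.48 stand farthest from 0, and neither reaches a dashed line.

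The last steps convert zymosterol into ergosterol, and their log2 fold changes ran from -0.48 to 0.20. ERG2 (YMR202W, chromosome XIII from 667537 to 668205), the C-8 sterol isomerase, had 6875 counts in cdc55Δ and 10806 in WT. Its RPKM was 341 in cdc55Δ and 486 in WT, and its log2 fold change of -0.48 (-0.53 to -0.44), or 1.40-fold lower, was the lowest of the 33. Of all mRNAs tested, 3.73% lay below it. Its neighbours in the pathway did not share this value. ERG6, the C-24 methyltransferase, had 5334 counts in cdc55Δ and 5397 in WT (log2 fold change 0.15), and ERG3, the C-5 desaturase, had 12273 and 14317 (-0.054). ERG5, the C-22 desaturase and the other P450 enzyme of the path, had 6769 counts in cdc55Δ and 6618 in WT (0.20), and ERG4, the final reductase, had 8600 and 10090 (-0.062). TOM40, the next gene downstream of ERG2 on the same strand, 286 bases away, had 4777 counts in cdc55Δ and 6016 in WT, a log2 fold change of -0.16.

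In the 500 bases before the start codon, a window chosen after values were seen, the genes at both ends of the order hold 1 match each. These matches to the element core lie on opposite strands relative to the gene, and only that of ERG2 is within the shorter window. The 300 bases before each start codon are given 5′ to 3′ on the strand of the gene, with the match in capitals, which reads as TATACGA where it lies on the other strand.
ERG28, chrV:238017-238316, minus strand: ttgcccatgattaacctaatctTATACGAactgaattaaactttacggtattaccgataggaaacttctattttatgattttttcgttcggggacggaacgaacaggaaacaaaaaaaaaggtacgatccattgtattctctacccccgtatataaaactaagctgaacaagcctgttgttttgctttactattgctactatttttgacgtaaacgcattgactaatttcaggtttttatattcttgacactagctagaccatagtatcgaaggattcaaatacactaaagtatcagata
ERG2, chrXIII:667237-667536, plus strand: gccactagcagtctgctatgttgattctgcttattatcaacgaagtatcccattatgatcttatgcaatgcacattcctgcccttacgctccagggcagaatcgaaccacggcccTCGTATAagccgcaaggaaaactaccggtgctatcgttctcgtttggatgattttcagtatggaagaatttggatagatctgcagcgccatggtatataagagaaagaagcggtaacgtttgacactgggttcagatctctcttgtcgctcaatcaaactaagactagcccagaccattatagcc

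The 10 genes with a match had log2 fold changes over the whole range of the set, from -0.48 to 0.47, with a median of 0.11, and the other 23 had a median of -0.0018. In the shorter window from 250 bases before to 50 bases after the start codon, the core was found in 4 of the 33 genes, against 4.15% of 6001 genes. These were ERG13, ERG8, ERG2 and YEH1, with a median log2 fold change of 0.060. The core of the Rox1p site, ATTGTT, which neither contains nor is contained in the sterol core, was in the longer window of 21 genes (63.6%), against 48.9% of all genes. The Hap1p site, a pair of CGG triplets around a spacer, was in 0 of the 33, against 0.350% of all genes. A match is a stretch of letters and not a measured binding site.

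The genes that hand electrons to the sterol enzymes were both lower in cdc55Δ. NCP1, the NADPH-cytochrome P450 reductase that serves Erg11p and Erg5p, had 3085 counts in cdc55Δ and 3921 in WT, a log2 fold change of -0.18 (-0.25 to -0.11). CYB5, cytochrome b5, which serves the desaturase and oxidase steps, had 1178 counts in cdc55Δ and 1566 in WT, a log2 fold change of -0.24 (-0.35 to -0.13). For comparison, the P450 genes ERG11 and ERG5 were at -0.0018 and 0.20.

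Genes of steryl ester storage lay close to 0. The acyltransferases, relatives of the animal enzyme that esterifies cholesterol, are ARE1 and ARE2. ARE1 had 2925 counts in cdc55Δ and 3315 in WT, a log2 fold change of -0.012 (-0.084 to 0.060). It overlaps the uncharacterized YCR050C by 298 bases on the opposite strand, and the strand setting of the counting is not given in the sources used here, but YCR050C had only 13 counts in cdc55Δ and 8 in WT. ARE2 had 2575 counts in cdc55Δ and 3059 in WT, a log2 fold change of -0.080 (-0.16 to -0.0039). The difference between the pair, 0.068, had an interval from -0.036 to 0.17.

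Of the steryl ester hydrolases, TGL1, found on lipid droplets, had 2236 counts in cdc55Δ and 2479 in WT, a log2 fold change of 0.020. YEH1, also of lipid droplets, had 1928 and 1914 counts, a log2 fold change of 0.18 (0.087 to 0.27). YEH2, of the plasma membrane, had 2427 counts in cdc55Δ and 2942 in WT, a log2 fold change of -0.11 (-0.19 to -0.031). The log2 fold changes of YEH1 and YEH2 differed by 0.29 (0.17 to 0.41), close in size to the difference between the HMG genes. YEH1 held 44.3% of the counts of the pair in cdc55Δ (42.8% to 45.8%) and 39.4% in WT (38.0% to 40.8%). YEH2 remained the more abundant per length, with an RPKM of 49.8 against 37.2 for YEH1 in cdc55Δ and 54.7 against 33.4 in WT.

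The transcription factors that bind the sterol regulatory element were near their WT levels. UPC2, whose product also senses sterol, had 2431 counts in cdc55Δ and 2920 in WT, a log2 fold change of -0.096 (-0.17 to -0.018). ECM22, its paralog, had 2023 counts in cdc55Δ and 2263 in WT, a log2 fold change of 0.0067 (-0.081 to 0.094). Their log2 fold changes differed by -0.10, with an interval from -0.22 to 0.014.

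A further 58 genes from 7 lists of neighbouring functions were set beside the members. Past 1.5-fold, 1 of them was higher and 2 were lower in cdc55Δ, a share of 5.17%, against 7.75% of all mRNAs tested. This count also lies near the background and is not read as particular to these lists. DAP1, which encodes a heme-binding protein that supports Erg11p, had 1291 counts in cdc55Δ and 838 in WT, a log2 fold change of 0.79 (0.67 to 0.92). ROX1, which encodes a heme-dependent repressor of hypoxic genes, had 476 counts in cdc55Δ and 926 in WT, a log2 fold change of -0.79 (-0.95 to -0.63). The other regulators were HAP1 at 0.53, MOT3 at 0.42, SUT1 at -0.036 and SUT2 at -0.47. In S288C and its derivatives HAP1 carries a Ty1 insertion. The third gene past 1.5-fold was PRY1, which encodes a sterol-binding secreted protein and had only 56 counts in cdc55Δ and 100 in WT, a log2 fold change of -0.66 (-1.17 to -0.18). PRY2, of the same family, was the highest of the 5 genes of sterol acetylation and export at 0.44, and the median of that list was -0.26.

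**Figure D5:**
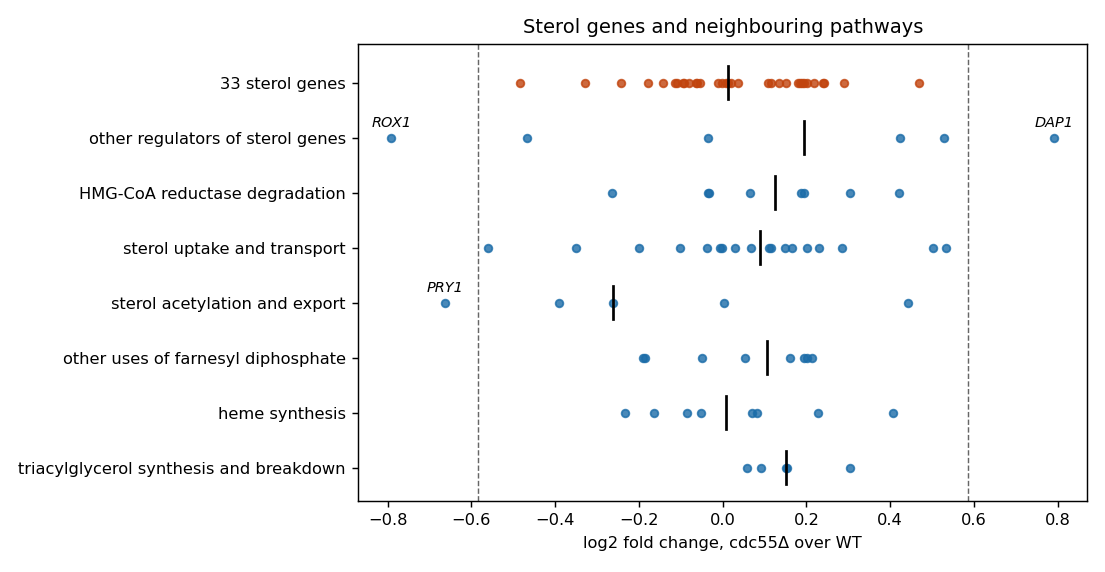
Log2 fold change of cdc55Δ over WT (x axis) of the 33 sterol genes and of the genes of 7 neighbouring lists, 1 point per gene, with a black bar at the median of each list. Dashed lines mark 1.5-fold, and the genes beyond them, ROX1, DAP1 and PRY1, are named.

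The other 5 lists held no gene past 1.5-fold with this scaling. PDR11, of sterol uptake and transport, was past it when libraries were scaled by total counts (-0.59) or the upper quartile (-0.60). The 18 genes of sterol uptake and transport had a median of 0.089, from -0.56 for PDR11, an importer used when oxygen is lacking, to 0.53 for HES1, an oxysterol-binding protein homolog. The 8 genes of HMG-CoA reductase degradation had a median of 0.13, from -0.26 for NSG1 to 0.42 for NSG2, both homologs of the animal INSIG proteins. The 8 genes of other uses of farnesyl diphosphate ran from -0.19 for RAM1 to 0.21 for COQ1, with a median of 0.11. The 8 genes of heme synthesis had a median of 0.0087, from -0.23 for HEM12 to 0.41 for HEM15, the ferrochelatase. HEM13, an oxygen-using step of heme synthesis, had 4070 counts in cdc55Δ and 5126 in WT, a log2 fold change of -0.16. The 5 genes of triacylglycerol synthesis and breakdown were all above 0, from 0.058 for DGA1 to 0.30 for TGL4, with a median of 0.15. The interval lay above 0 for 3 of them and spanned 0 for DGA1 (-0.052 to 0.17) and TGL5 (-0.010 to 0.31). Of all mRNAs tested, 50.7% were above 0.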

How the data were processed

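Paired-end reads came from rRNA-depleted libraries. Reads were demultiplexed (Cutadapt) and aligned to the S288C reference (hisat2) by the authors, who deposited 1 count per annotated transcript. The submitters' processing notes also name featureCounts, whose version, strand setting and treatment of reads with several sites are not given in the sources used here. The deposited RPKM values equal the counts divided by the listed length and the library total. The deposited TPM values were not used. Log2 fold changes were computed from the counts with TMM factors from edgeR 4.0.16 (R 4.3.3), a prior count of 0.5, pandas 2.3.3 and SciPy 1.17.1 in Python 3.11.15. The R64 genome and RefSeq annotation were joined by transcript accession. All 33 members had the R64 length, and 0 held a 100-base stretch found elsewhere in the genome. With 1 library per strain, the quasi-likelihood fit of edgeR has no residual degrees of freedom and was not run.

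The members and lists were chosen with earlier results of these data known. Values of all members, of the highest and lowest gene of each other list and of any gene there past 1.5-fold were to be given. Other genes, the 1.2-fold threshold and the window of 500 bases were chosen after values were seen. PCR copies are not independent molecules, but the intervals take each read as independent. The intervals cover counting error only and can be too narrow even for that. A feature without counts can hold up to 9.96e-06% of the cdc55Δ counts and 9.03e-06% of the WT counts, the share of 3 counts. Alternatives were DESeq2 1.42.0 size factors, total counts, upper-quartile scaling, iterated DEGES with 3 rounds, protein-coding genes only, other prior counts and count minimums, deposited RPKM and changed lists.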

Additional observations from a re-analysis of the deposited data

How the results depend on the processing

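Under no alternative was a sterol gene past 1.5-fold or 2-fold. The alternative scalings shifted every log2 fold change by at most 0.042 (upper-quartile), so the direction of genes within that distance of 0 can depend on the scaling. Genes farther from 0 kept their direction under each scaling. The difference between cultures was not measured, so this holds for these libraries only. ERG8, ERG27, TGL1 and ECM22 came out below 0 with upper-quartile scaling, and ERG11 just above 0 (2.2e-05) with DESeq2 size factors. The number of sterol genes above 0 was 18 as reported, 14 with upper-quartile scaling and 19 with DESeq2 size factors, and their median lay between -0.030 and 0.016. Of the 58 genes of the other lists, 3 were past 1.5-fold as reported and 4 with total counts, upper-quartile scaling or deposited RPKM, and 2 with a count minimum of 200. The difference of 0.099 between the medians of the mevalonate and the sterol steps does not depend on the scaling, which shifts every gene alike. It was 0.12 without ERG9, 0.086 without HMG2, and 0.071 for means in place of medians. With 1 library per strain, leaving out a replicate was not possible. No paired analysis was possible because each strain has 1 library. At the depth of ERG29, the least counted member, the interval spans 0.32 on the log2 scale.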
